A study of Mus musculus with 21 samples.

Results

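The expression of 10 cytokine genes, the interleukin 1 family and its epithelial alarmin relatives, was followed in mouse epidermis. They are the agonists Il1a and Il1b with their antagonist Il1rn, the IL-36 agonists Il1f6, Il1f8 and Il1f9 (named Il36a, Il36b and Il36g in newer annotation) with their antagonist Il1f5 (Il36rn), and Il18, Il33 and Tslp. The genes were taken by symbol from the 49315 Ensembl genes of the deposited count files, and all 10 were found there and passed the filter on low counts. The series concerns the products of Tfap2a and Tfap2b, transcription factors of the AP-2 family, in adult epidermis. RNA came from epidermal sheets, in 7 groups of 3 samples. The comparison below is between 3 libraries labelled double knockout (K14CreTfap2afl/flTfap2bfl/fl, 6 months of age) and 3 of the strain-specific control (labelled WT, same age). The Cre transgene, under the Krt14 (keratin) promoter, recombines in basal keratinocytes and their progeny, so resident T cells and Langerhans cells are not targeted. A further 2 libraries with counts were labelled Tfap2b knockout (K14CreTfap2bfl/fl, 3 weeks). They had no control of their age with counts, and they are described without a test. The labels do not say whether the controls carried Cre or floxed alleles, whether samples were single animals or pools, or the animals' sex. The p-values therefore measure the spread between these libraries.

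Members of this family act as alarm signals of barrier tissue. Keratinocytes store IL-1α, IL-18 and IL-33 and release them on injury, while IL-1β and IL-18 are made as precursors that caspase-1 cleaves in the inflammasome. The IL-36 cytokines act through the receptor encoded by Il1rl2 together with the shared co-receptor Il1rap, and they are known for their part in psoriasis-like inflammation. Il1rn and Il1f5 encode antagonists that occupy the receptors without signalling, and TSLP, a cytokine outside the family by sequence, acts on dendritic and lymphoid cells and is known for its part in atopic skin.

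Libraries held 11318181 to 17746284 counts. Control replicates 1 and 2 stood apart in the density of counts over genes of odorant and vomeronasal receptors, 1.61 and 3.19 per exonic kb, against 0.0970 to 0.195 in the other 6 libraries. Scaled by exon length, this density came to at most 9.84% of the counts of a cytokine gene in any library, apart from Il1b, where it was 34.1% and 13.8% in those controls. Tfap2a was at 165, 140.3 and 210.1 counts per 1000000 counts of the library (CPM) in the controls and at 229, 213 and 309 CPM under the double knockout label. Tfap2b was at 57.3, 86.6 and 71.0 CPM and at 53.8, 57.2 and 56.9 CPM. Neither gene passed the test (adjusted p in edgeR 0.118 and 0.111), so a loss of these genes was not seen at the level of whole-gene counts, and directions are given for libraries as labelled. Keratinocyte markers dominated as the tissue label says, with Krt5 at 2434 to 5893 CPM and Krt10 at 5235 to 7824 CPM. The library of Tfap2b knockout replicate 1 held 2750 CPM summed over 8 fibroblast markers and 443 CPM over 6 endothelial markers, against 104 to 943 and 5.99 to 35.0 CPM in the other 7.

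Il33 and Il1f9 were the 2 members that passed the test, and the stretches before their annotated starts are shown because AP-2 factors are the targeted regulators. Promoter windows from RefSeq (GRCm38.p6) were found for 8 of the 10 genes, in 12 windows; Il1f6 and Tslp are named only. In the 250 bases before each start, the AP-2 motif GCCNNNGGC, the AP-1 motif TGANTCA and the NF-kB motif were searched on both strands, and matches are in capitals. The windows are Il33 first start, chr19:29924863-29925112, Il33 second start, chr19:29945540-29945789, and Il1f9, chr2:24186226-24186475, all on the plus strand and read 5′ to 3′.
Il33 first start: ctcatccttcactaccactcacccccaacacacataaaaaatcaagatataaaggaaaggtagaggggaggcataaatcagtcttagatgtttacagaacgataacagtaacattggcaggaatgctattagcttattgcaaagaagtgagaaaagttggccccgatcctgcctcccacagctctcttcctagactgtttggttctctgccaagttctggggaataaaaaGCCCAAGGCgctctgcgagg
Il33 second start: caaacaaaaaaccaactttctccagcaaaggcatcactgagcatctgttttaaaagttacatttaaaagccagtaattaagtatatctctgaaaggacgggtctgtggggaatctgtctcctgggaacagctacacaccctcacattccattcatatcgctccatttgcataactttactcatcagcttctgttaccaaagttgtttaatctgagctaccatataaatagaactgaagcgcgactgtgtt
Il1f9: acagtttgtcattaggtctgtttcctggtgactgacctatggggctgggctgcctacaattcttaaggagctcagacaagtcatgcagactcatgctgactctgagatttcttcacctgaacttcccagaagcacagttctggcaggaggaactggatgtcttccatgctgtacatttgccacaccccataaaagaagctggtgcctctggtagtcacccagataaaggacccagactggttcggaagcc
The AP-2 motif stood 20 bases before the first Il33 start, as GCCCAAGGC, and in none of the letters of the other 2 windows shown. Over all 32851 windows of this length it stood in 13.7%. Among the 12 windows of the cytokine genes it stood in 2, the other one being at the second Il1f5 start, 216 bases before it, as GCCAGAGGC. The AP-1 motif stood before Il1a, the first Il1rn start and Il1f8 (6.75% of all windows), and the NF-kB motif, in 7.25% of all windows, before none of the 8 genes. A match in this window is a description of letters, and binding was not measured.

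Of the 10 cytokine genes, 2 rose under the double knockout label, Il33 and Il1f9, and none fell. Over all 17755 genes tested, 6.26% were called higher and 8.59% lower (edgeR's quasi-likelihood test, Benjamini-Hochberg adjusted p under 0.05), and 14.9% in either direction. At an unadjusted p under 0.05, 3 of the 10 were higher and 0 lower with edgeR, and 3 and 1 with DESeq2, which after adjustment also called 2 higher and 0 lower. Unadjusted, the 17755 genes had 2570 higher and 3120 lower with edgeR, and 2631 and 3209 with DESeq2. After adjustment DESeq2 called 1653 of them higher and 2182 lower. Their median log2 fold change was 0.23, against -0.04 over all genes tested. CPM ranges of the groups did not overlap for 3 of the 10, against 38.7% of all genes tested. All 3 were higher, as were 22.5% of all genes tested, while 16.3% were lower.

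**Figure D1:**
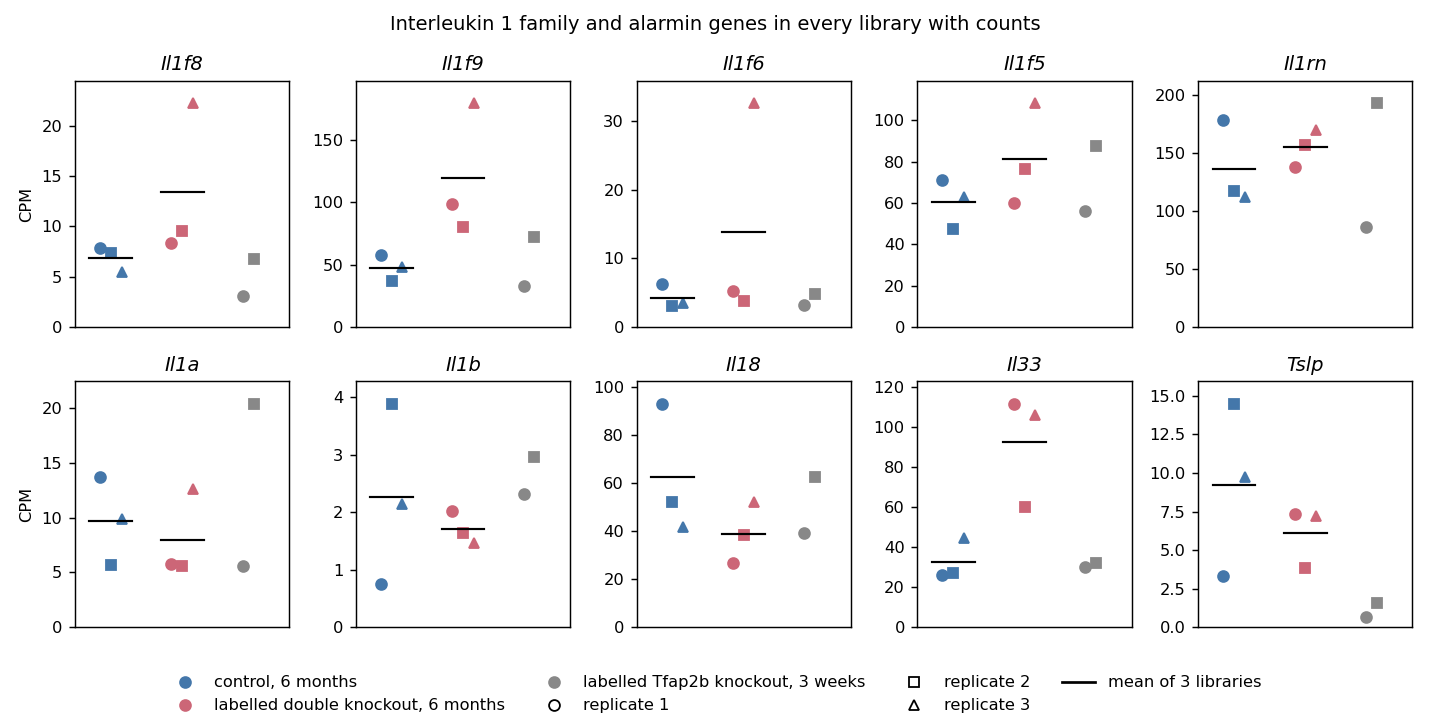
Each panel plots 1 gene in CPM on a linear axis from 0, with a point per library, colour for the group and marker shape for the replicate number; bars are means of 3 libraries. Il33 and Il1f9 are higher in every library labelled double knockout than in every control, and replicate 3 of that label stands above the rest for Il1f6, Il1f8 and Il1f9.

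Per kb of exon, the controls held most Il18, at 60.6 ± 26.3 CPM per kb (SD, n = 3, as for the other levels here). Il1f9 followed at 28.8 ± 6.42 and Il1rn at 24.5 ± 6.70. Il1f5 was at 13.5 ± 2.65, Il33 at 11.3 ± 3.64 and Tslp at 8.11 ± 4.95. Il1f8 at 5.64 ± 1.02, Il1a at 4.93 ± 2.04 and Il1f6 at 4.85 ± 2.00 lay together, and Il1b was lowest at 1.19 ± 0.825. Neighbours in this order had overlapping ranges from Il1f9 to Il1rn, from Il1f5 through Il33 to Tslp, and from Tslp through Il1f8 and Il1a to Il1f6. In the libraries labelled double knockout Il1f9 stood at 72.5 ± 31.9 and Il33 at 32.1 ± 9.79 CPM per kb, and Il18 at 37.9 ± 12.4.

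Il33 (ENSMUSG00000024810, chromosome 19, 29925114 to 29960718, plus strand, GRCm38) encodes a nuclear cytokine released from damaged epithelium. It was at 26.2, 27.1 and 44.8 CPM in control replicates 1, 2 and 3 and at 112, 60.3 and 106 CPM under the double knockout label, on 307 to 1883 counts. The lowest library labelled double knockout stood above the highest control. Its log2 fold change was 1.43 (SE 0.28), a 2.69-fold rise, with an edgeR adjusted p of 0.0122. Leaving out control replicate 1, control replicate 2 or replicate 1 of the double knockout gave 1.30, 1.31 and 1.32, with adjusted p in edgeR of 0.0592, 0.0522 and 0.0587, no longer past the threshold. The other 11 alternatives kept the call, and the direction was the same in all 14.

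Markers of cells known to make Il33 moved in different ways beside this rise. Of all genes tested, 6.26% were called higher and 8.59% lower. Basal keratinocyte markers rose in 5 of 8 genes, with sums of 8348 to 10665 CPM in the controls and 15928 to 19036 CPM under the double knockout label. The basal marker Krt15 went the other way without overlap and did not pass. It was at 1026 ± 259 and 412 ± 230 CPM (SD, n = 3 each, adjusted p in edgeR 0.0513). Of 8 fibroblast markers 3 fell and 2 rose: Col1a1, a collagen chain, was at 38.2 ± 23.3 and 8.44 ± 3.62 CPM (SD, n = 3 each, adjusted p in edgeR 0.0222), while Postn, a matrix protein, was at 130 ± 74.3 and 559 ± 266 CPM (adjusted p in edgeR 0.0460). Endothelial marker sums were 6.77 to 35.0 and 7.64 to 9.99 CPM. In tissue RNA, more cells of a type and more RNA per cell cannot be told apart, and the part of these markers in the Il33 difference was not tested. In the 2 libraries labelled Tfap2b knockout Il33 was at 30.1 and 32.1 CPM, and their fibroblast marker sums were 2750 and 104 CPM.

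Il1f9 (ENSMUSG00000044103, chromosome 2, 24186476 to 24193568, plus strand) encodes IL-36γ, the agonist that keratinocytes make most of in inflamed skin. It was at 57.7, 36.6 and 48.0 CPM in control libraries, and at 98.9, 80.5 and 179 CPM under the double knockout label. All 3 of these stood above all controls, and replicate 3 was highest. The log2 fold change was 1.26 (SE 0.31), a 2.39-fold rise, with an edgeR adjusted p of 0.0297. Without control replicate 1, control replicate 2 or replicate 1 of the double knockout it was 1.43, 1.11 and 1.43, with adjusted p in edgeR of 0.0699, 0.0893 and 0.0548. With all 8 libraries in 1 fit it was 1.30, with an edgeR adjusted p of 0.0718. Without replicate 3 of the double knockout it was 0.87 and still past the threshold.

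Il1f8 (ENSMUSG00000026985, chromosome 2, 24153161 to 24160519), which encodes IL-36β, was at 7.81, 7.33 and 5.47 CPM in control libraries, and at 8.33, 9.54 and 22.2 CPM under the double knockout label. The groups did not overlap, but only just. Its log2 fold change of 0.88 (SE 0.39) did not pass (adjusted p in edgeR 0.145), and it was 0.33 without replicate 3 of the double knockout. Without a filter on low counts it passed, at 1.00 and an edgeR adjusted p of 0.0116. Il1f6 (ENSMUSG00000026984, chromosome 2, 24215418 to 24225702), which encodes IL-36α, was at 6.31, 3.09 and 3.45 CPM in control libraries, and at 5.21, 3.82 and 32.6 CPM under the double knockout label. Replicates 1 and 2 of that label lay within the control range and replicate 3 stood far above it, on 579 counts against 35 to 76 in the other 5 libraries. The log2 fold change was 1.61 (SE 0.85, adjusted p in edgeR 0.231), and it was 0.03 without that library.

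Among the 3 libraries of the double knockout label, most tested genes known to be induced by IL-1 or IL-36 were highest in replicate 3. They were Cxcl1, Cxcl3, Ccl2, Ccl20, Lcn2, S100a8, S100a9, Ptgs2 and Nfkbid. Of these, Cxcl1, Cxcl3 and Ccl2 held 50 counts or fewer in each library of that label. In replicate 3, Ptgs2, Ccl20 and Ccl2 stood below every control, at 49.1, 1.97 and 1.47 CPM. Cxcl3 and Nfkbid lay within the control range there, and Cxcl1, Lcn2, S100a8 and S100a9 stood above every control. Among the tested genes, Tnf was highest in replicate 2 and Cxcl2 in replicate 1. S100a8, which encodes a calprotectin subunit and was chosen here after its values were seen, was at 24.0, 4.23 and 172 CPM in the 3 libraries of that label and at 0.0651 to 2.08 CPM in the controls. It did not pass the test (log2 fold change 6.14, SE 2.07, adjusted p in edgeR 0.119). Il24 and Cxcl2, cytokine genes also chosen after their values were seen, were highest in replicate 1, with 2.25, 0.614 and 1.01 CPM for Il24 and 2.75, 0.409 and 1.69 CPM for Cxcl2.

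Neutrophil markers, a list of 9 genes that includes S100a8 and S100a9, summed to 13.3 to 15.04 CPM in control libraries and to 96.7, 55.1 and 286 CPM in replicates 1, 2 and 3 of the double knockout. Of the 6 tested, 1 was called: Cxcr2, a chemokine receptor of neutrophils, rose from between 0.265 and 0.498 CPM to between 25.4 and 45.9 CPM (log2 fold change 5.98, SE 0.37, adjusted p in edgeR 9.87e-05). S100a9 and Mmp9 were higher without overlap and did not pass (adjusted p in edgeR 0.0797 and 0.102). Over all genes tested, 6.26% were called higher, 8.59% were called lower and 22.5% were higher without overlap. In replicate 3, S100a8, S100a9 and Cxcr2 held 172, 70.8 and 25.4 of the 286 CPM. Csf3r and Mmp8 overlapped between the groups, and Ly6g, Retnlg and Cd177 were not tested. Cd177 was lower without overlap, at 0.195 to 2.56 CPM in control libraries and 0.136 to 0.169 CPM under the double knockout label. Retnlg overlapped and held 6 counts or fewer in every library. Ly6g, a defining marker, held 4 counts or fewer in every library. The T cell marker sum was 125 CPM in replicate 3, against 238 and 282 CPM in replicates 2 and 1 of its label. The part of these markers in the IL-36 values was not tested.

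Il1f5 (ENSMUSG00000026983, chromosome 2, 24276954 to 24283426), the IL-36 receptor antagonist, was at 71.0, 47.6 and 63.2 CPM in control libraries, and at 59.8, 76.5 and 108 CPM under the double knockout label, with overlapping groups. Its log2 fold change was 0.36 (SE 0.24, adjusted p in edgeR 0.332), or 0.13 without replicate 3 of the double knockout. To set antagonist against agonists within each library, counts per kb of exon were compared. The ratio of Il1f5 to the sum of Il1f6, Il1f8 and Il1f9 was 0.325, 0.333 and 0.374 in the controls and 0.183, 0.279 and 0.147 under the double knockout label. All 3 of these lay below all controls. The mean log2 ratio was -1.54 ± 0.11 in the controls and -2.35 ± 0.47 under the double knockout label (SD, n = 3 each), a difference of -0.81, or 1.75-fold. A two-sided exact permutation test gave p = 0.1, the smallest that 3 against 3 allows, and 0.2 after adjustment over the 2 ratios computed. The difference was between -1.07 and -0.60 when 1 library was left out. Il1f9, itself called higher, was the largest of the 3 agonist terms, at means of 28.8 CPM per kb in the controls and 72.5 under the double knockout label. The ratio is therefore not a result apart from the Il1f9 rise. The same ratio was 0.480 and 0.354 in the libraries labelled Tfap2b knockout.

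**Figure D2:**
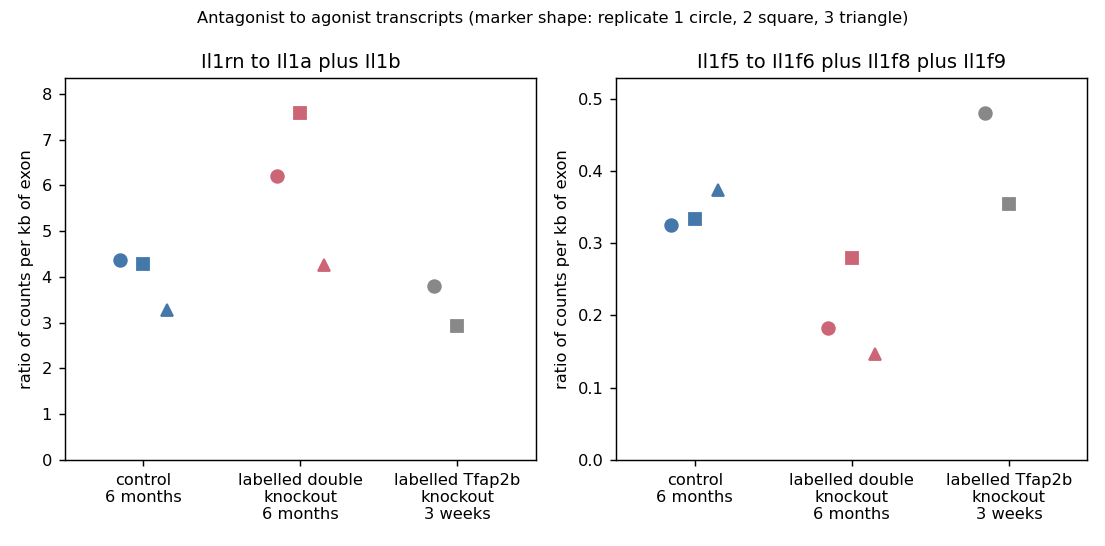
Both panels plot a ratio of counts per kb of exon for each library on a linear axis from 0, with groups along the horizontal axis. The Il1f5 ratio is 0.147 to 0.279 under the double knockout label and 0.325 to 0.374 in the controls, and the Il1rn ratio overlaps between these groups.

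Among the classical ligands, Il1a (ENSMUSG00000027399, chromosome 2, 129299610 to 129309972, minus strand), a cytokine stored in keratinocytes, was at 13.7, 5.65 and 9.83 CPM in control libraries, and at 5.72, 5.59 and 12.6 CPM under the double knockout label. The groups overlapped almost fully, with a log2 fold change of -0.35 (SE 0.42, adjusted p in edgeR 0.590). This value was -0.02 without control replicate 1 and -0.81 without replicate 3 of the double knockout. Il1b (ENSMUSG00000027398, chromosome 2, 129364570 to 129371139, minus strand), the inflammasome substrate, held 9, 44 and 33 counts in control replicates 1 to 3, against 28, 24 and 26 under the double knockout label. These were 0.747, 3.89 and 2.15 CPM and 2.03, 1.64 and 1.47 CPM, with a log2 fold change of -0.45 (SE 0.60, adjusted p in edgeR 0.617). It was 0.15 without control replicate 2, so its direction depended on that library. Both genes are uncertain where they meet antisense genes, since the use of strand in counting is not given in the sources used here. Il1a shares 222 exonic bases with Gm14023, which held 23 to 61 counts, and Il1b shares 25 with Il1bos, which held 2 to 28.

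Il1rn (ENSMUSG00000026981, chromosome 2, 24336853 to 24351494, plus strand), the antagonist of both, was at 178, 117 and 111 CPM in control libraries, and at 137, 156 and 169.9 CPM under the double knockout label. The groups overlapped, and the log2 fold change was 0.11 (SE 0.20, adjusted p in edgeR 0.726), or 0.37 without control replicate 1. Per kb of exon, the ratio of Il1rn to the sum of Il1a and Il1b was 4.37, 4.27 and 3.28 in the controls and 6.21, 7.58 and 4.27 under the double knockout label. The lowest of the latter fell just inside the control range. The mean log2 ratio differed by 0.57, from 1.98 ± 0.23 to 2.55 ± 0.42 (SD, n = 3 each), with p = 0.3 in a two-sided exact permutation test before and after adjustment.

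Il18 (ENSMUSG00000039217, chromosome 9, 50554827 to 50581840, plus strand) encodes a precursor that, like that of IL-1β, is cut by caspase-1. It was at 93.2, 52.4 and 41.7 CPM in control libraries, and at 26.6, 38.5 and 52.2 CPM under the double knockout label. Replicate 3 of the double knockout overlapped the controls. The log2 fold change was -0.75 (SE 0.34, adjusted p in edgeR 0.167), -0.33 without control replicate 1 and -0.48 without replicate 1 of the double knockout. Without a filter on low counts it passed as lower, at -0.62 and an edgeR adjusted p of 0.0300.

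Tslp (ENSMUSG00000024379, chromosome 18, 32815383 to 32819799, plus strand) was at 3.32, 14.5 and 9.77 CPM in control libraries, and at 7.31, 3.82 and 7.21 CPM under the double knockout label. The controls alone spanned more than the whole range of the other group. The log2 fold change was -0.65 (SE 0.49, adjusted p in edgeR 0.382), -0.17 without control replicate 2 and -1.04 without control replicate 1. At 3 weeks the libraries labelled Tfap2b knockout held 0.694 and 1.60 CPM, on 9 and 20 counts, below every library of 6 months. Age and genotype cannot be told apart there.

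Of the 10 genes, 7 lie on chromosome 2, and 5 of them form a run on the plus strand together with Il1f10, which encodes the family member IL-38. In the order Il1f8, Il1f9, Il1f6, Il1f5, Il1f10, Il1rn, gene starts lie at 0, 33.3, 62.3, 123.8, 138 and 184 kb from the first. Along this run the log2 fold changes were 0.88, 1.26, 1.61, 0.36, -1.27 and 0.11, so the 3 agonist genes at its start had the higher values and only Il1f9 among them passed. This order depended on replicate 3 of the double knockout. Without that library Il1f8, Il1f9, Il1f6 and Il1f5 were at 0.33, 0.87, 0.03 and 0.13. Il1f10 (ENSMUSG00000046845, chromosome 2, 24291196 to 24293820) was at 5.23, 7.60 and 8.72 CPM in control libraries, and at 2.46, 3.48 and 3.21 CPM under the double knockout label. It fell, with a log2 fold change of -1.27 (SE 0.33, adjusted p in edgeR 0.0300). It lost the threshold without control replicate 2 (-1.23) and without replicate 1 (-1.10), 2 (-1.33) or 3 (-1.28) of the double knockout. With the replicate number as a block it was -1.26, with an edgeR adjusted p of 0.0522, and with all 8 libraries in 1 fit -1.23, with 0.0524.

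**Figure D3:**
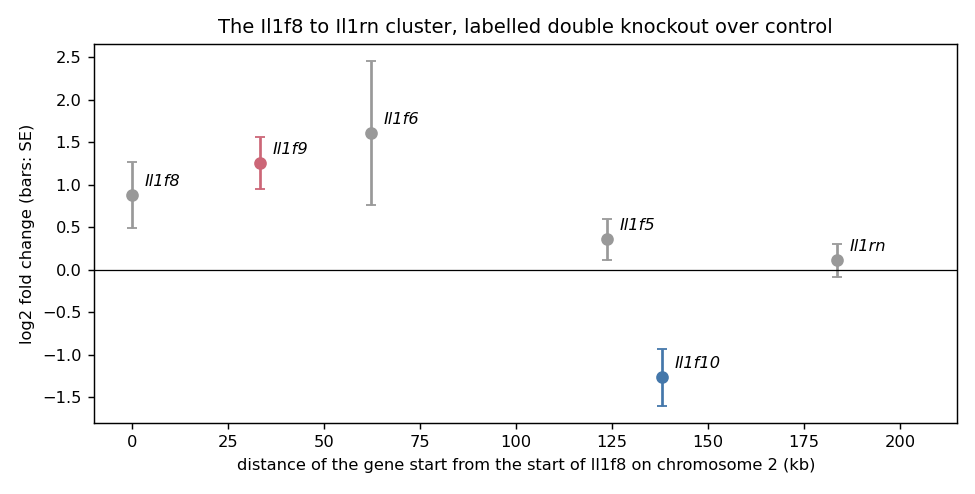
Log2 fold changes (vertical axis, bars are SE) are plotted against the distance in kb of each gene start from that of Il1f8 (horizontal axis), in red where past the threshold as higher and in blue as lower. Il1f9 is higher at 1.26 and Il1f10 lower at -1.27, and the antagonist genes Il1f5 and Il1rn lie at 0.36 and 0.11.

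Among 11 receptors, co-receptors and binding proteins of these cytokines, 1 rose and 2 fell, all 11 having been tested, and their median log2 fold change was -0.21. The shares over all genes tested were 6.26% higher and 8.59% lower. Il1rl2, the IL-36 receptor, rose from 234, 194 and 238 CPM in the controls to 673, 584 and 523 CPM under the double knockout label. The groups lay far apart. The log2 fold change was 1.34 (SE 0.14), a 2.53-fold rise, with an edgeR adjusted p of 0.000875, and the call held in all 14 alternatives, between 1.26 and 1.47. At 3 weeks the libraries labelled Tfap2b knockout were at 202 and 305 CPM.

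Sigirr, an inhibitory receptor of the family, fell from 12.2, 9.54 and 7.62 CPM to 3.48, 4.09 and 2.99 CPM (log2 fold change -1.52, SE 0.30, adjusted p in edgeR 0.0115). It lost the threshold without replicate 1 of the double knockout, at -1.46 and 0.0622. Il18r1, the ligand-binding IL-18 receptor chain, fell from 53.6, 34.6 and 33.5 CPM to 24.5, 21.7 and 10.1 CPM (log2 fold change -1.19, SE 0.33, adjusted p in edgeR 0.0407). Without control replicate 1 or 2 its values were -0.93 and -1.29, and without replicates 1, 2 or 3 of the double knockout -1.37, -1.27 and -0.85, none past the threshold. With all 8 libraries in 1 fit it was -1.14 and also not past it. Il18r1 is carried by T cells as well. Of 7 T cell markers only Thy1, which is also in the fibroblast list, was called, and it was higher (23.3 ± 7.34 and 83.0 ± 23.5 CPM, SD, n = 3 per group). The shares called over all genes tested were 6.26% higher and 8.59% lower. Cd3e, Cd3g, Cd3d, Trdc and Cd2 had log2 fold changes of -0.35, -0.34, -0.94, -0.52 and -0.49, the direction of Il18r1, and Ptprc had 0.02, none past the threshold. The list's median was -0.35, while its sum, with Thy1 in it, was 106 to 219 CPM in control libraries and 125 to 282 CPM under the double knockout label. The part of these markers in the Il18r1 value was not tested.

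The remaining 8 receptor genes did not pass. Il1r1, the signalling IL-1 receptor, was at 119 ± 11.8 CPM in the controls and 111 ± 7.32 CPM under the double knockout label (SD, n = 3 each, as below). Il1rap, the co-receptor shared by IL-1, IL-33 and IL-36, was at 82.9 ± 9.20 and 75.7 ± 1.68 CPM. Il1r2, a decoy receptor, was at 62.9 ± 8.74 and 53.9 ± 5.41 CPM. Il18bp, the soluble IL-18 binding protein, was at 22.1 ± 7.86 and 14.5 ± 0.496 CPM (log2 fold change -0.69, adjusted p in edgeR 0.0969). It passed without control replicate 3, at -0.79. Il7r, which TSLP shares with interleukin 7, was at 3.57, 3.45 and 3.58 CPM in control libraries, and at 9.49, 6.89 and 6.09 CPM under the double knockout label, without overlap. Its log2 fold change of 0.98 (SE 0.30, adjusted p in edgeR 0.0522) passed in 5 of 14 alternatives, among them without control replicate 3, at 1.06. The TSLP receptor Crlf2 (1.16 to 2.60 CPM over the 6 libraries), the IL-33 receptor Il1rl1 (0.456 to 3.27 CPM) and Il18rap (0.130 to 3.09 CPM) were low in both groups. Their directions changed between alternatives.

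**Figure D4:**
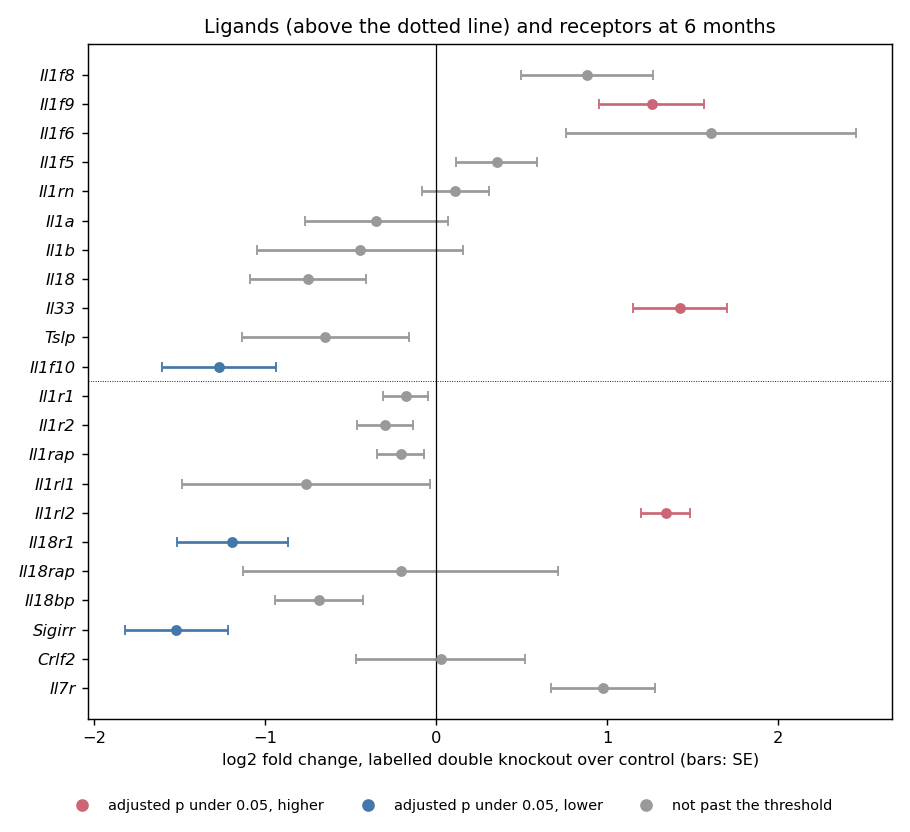
Log2 fold changes of the 10 cytokine genes and Il1f10 (above the dotted line) and of 11 receptor genes (below it) are plotted on the horizontal axis with SE bars, in red or blue where past the threshold. Il33, Il1f9 and Il1rl2 are higher at 1.43, 1.26 and 1.34, and Il1f10, Il18r1 and Sigirr lower.

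Of 20 genes that carry the signal from these receptors to NF-kB or hold it back, 1 rose and 4 fell, with a median log2 fold change of 0.02. Beside these counts, 6.26% of all genes tested were called higher and 8.59% lower. Tnfaip3, the A20 brake on NF-kB, fell from 485, 456 and 392 CPM to 191, 108 and 158 CPM (log2 fold change -1.62, SE 0.20, adjusted p in edgeR 0.00167). Nfkbia, the inhibitor IκBα, fell from 479 ± 55.1 to 226 ± 62.6 CPM (SD, n = 3 per group; log2 fold change -1.16, adjusted p in edgeR 0.00850). Both are themselves induced by NF-kB, and both calls held in all 14 alternatives. Nfkbiz, of the same list and chosen after its values were seen, went the other way and did not pass. It was at 476 ± 74.4 and 649 ± 126 CPM (log2 fold change 0.37, adjusted p in edgeR 0.164). Irak4, the receptor-proximal kinase, rose from 9.12 ± 3.08 to 20.0 ± 3.70 CPM (log2 fold change 1.04, adjusted p in edgeR 0.0312), but not past the threshold in any fit with 1 library left out except that without control replicate 3. Those values were 0.83 and 1.03 without control replicates 1 and 2, and 0.93, 1.12 and 1.17 without replicates 1, 2 and 3 of the double knockout. With the replicate block it was 1.07 and not past it either. Relb and Tollip fell by 0.76 and 0.53 on the log2 scale and lost the threshold in 9 and 7 of 14 alternatives.

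Of 17 genes that process or release the cytokines 12 were tested, and 3 rose and 2 fell, with a median of -0.19. All genes tested had 6.26% called higher and 8.59% lower. Capn2, a calpain of the protease family that cuts the IL-1α precursor, rose from 14.4, 28.0 and 21.7 CPM to 194, 80.3 and 189 CPM (log2 fold change 2.77, SE 0.38, adjusted p in edgeR 0.00402). Nlrp1b, an inflammasome sensor, fell from 13.8, 18.4 and 19.6 CPM to 6.23, 4.70 and 2.14 CPM (log2 fold change -2.04, SE 0.36, adjusted p in edgeR 0.00711). The calls of Capn2 and Nlrp1b held in all 14 alternatives. Nlrp10 fell from 140.2 ± 43.7 to 59.8 ± 16.0 CPM (SD, n = 3 each, adjusted p in edgeR 0.0129), not past the threshold without replicate 1 of the double knockout (-1.12) or with all 8 libraries in 1 fit (-1.25). Casp1, which cuts the precursors of IL-1β and IL-18, and Casp8 rose by log2 fold changes of 0.72 and 0.75 (adjusted p in edgeR 0.0483 and 0.0468). Casp1 lost the threshold in 8 of 14 alternatives, at 0.58 to 0.84, and Casp8 in 7, at 0.55 to 0.83.

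Of 25 genes known to be induced by IL-1 or IL-36, 11 had enough counts to be tested, and 4 fell and none rose, with a median of -0.02. Calls over all genes tested were 8.59% lower and 6.26% higher. At an unadjusted p under 0.05, edgeR had 2 higher and 5 lower, and DESeq2 called 2 higher after adjustment. Over all 17755 genes tested, edgeR had 2570 higher and 3120 lower unadjusted, and DESeq2 called 1653 higher. Ptgs2, which encodes the inducible cyclooxygenase, fell from 114, 126 and 119 CPM to 31.0, 18.3 and 49.1 CPM (log2 fold change -1.93, SE 0.31, adjusted p in edgeR 0.00663), a call that held in all 14 alternatives. Ccl20, a chemokine, had 3.99, 2.56 and 12.6 CPM in control libraries, against 1.30, 0.818 and 1.97 CPM under the double knockout label (log2 fold change -2.17, adjusted p in edgeR 0.0397), and without control replicate 3 it was -1.17 and not past the threshold. It was also not past it without control replicate 1 (-2.41), without replicates 1, 2 or 3 of the double knockout (-2.11, -1.91 and -2.49) and with all 8 libraries in 1 fit (-2.14). The cytokine gene Tnf and Nfkbid, an NF-kB regulator, fell by 1.06 and 1.60 on the log2 scale (adjusted p in edgeR 0.0397 and 0.0384). They lost the threshold in 6 and 5 of 14 alternatives, 5 and 4 of these being fits with 1 library left out, at -1.22 to -0.81 and -1.58 to -1.15. The other 14 did not pass the filter on low counts and were not tested.

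**Figure D5:**
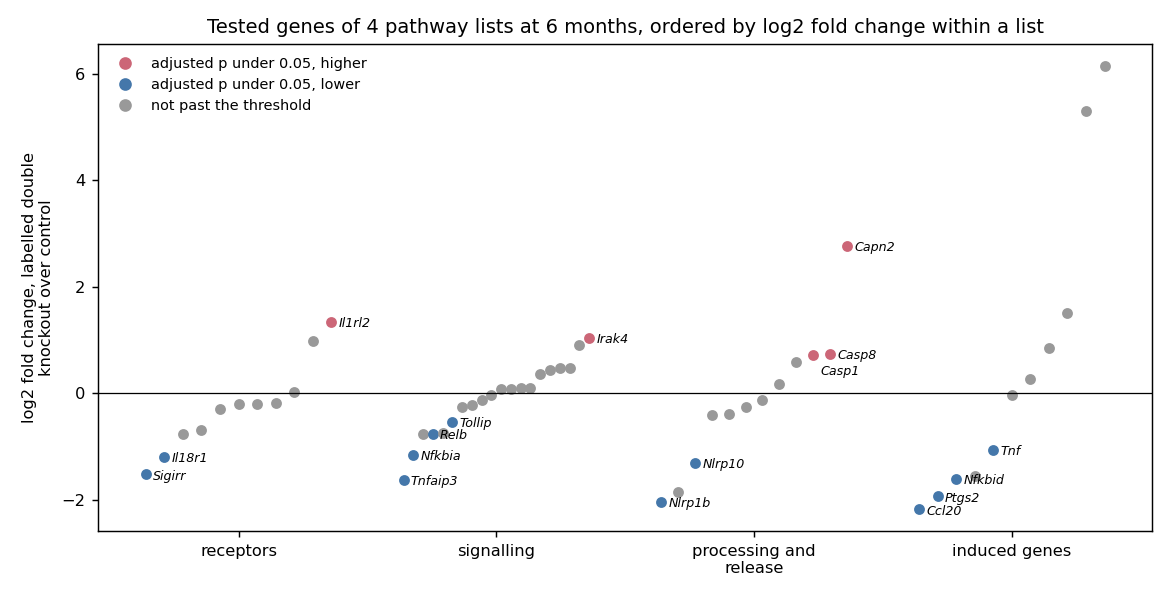
Each point is a tested gene of 1 of 4 lists (horizontal axis), at its log2 fold change (vertical axis), ordered within the list and named where past the threshold. Higher calls are Il1rl2, Irak4, Capn2, Casp1 and Casp8, and the 2 highest unnamed points among the induced genes are S100a8 and S100a9.

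The 2 genes most alike to Il1f9 over the 8 libraries, by Pearson correlation of log2(CPM + 0.5), were Hpgd (r = 0.978) and Vdr (r = 0.978). Hpgd encodes the enzyme that inactivates prostaglandins and had a log2 fold change of 1.98 (adjusted p in edgeR 0.00746), and Vdr, the vitamin D receptor gene, had 0.48 (0.0722). For Il33 they were Rrp8 (r = 0.984, log2 fold change 0.77) and 0610031O16Rik (r = 0.982, 1.61). These libraries include those of the Tfap2b knockout label at 3 weeks, and any difference between the groups, also in age or cell content, enters the correlation. In all, 44 genes reached 0.9 with Il1f9 and 355 with Il33, and the reason was not tested.

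At 3 weeks, in the 2 libraries labelled Tfap2b knockout, the 10 genes ranged from Tslp at 0.694 and 1.60 CPM to Il1rn at 86.3 and 192 CPM. Il1f9 was at 32.7 and 72.3 CPM, Il1f8 at 3.08 and 6.71, Il1f6 at 3.16 and 4.80, and Il1f5 at 56.1 and 87.4 CPM. Replicate 2 was higher than replicate 1 in all 10 genes. Il1a had the largest ratio between them, at 5.63 and 20.4 CPM, and Il18 was at 39.2 and 62.6 CPM. Replicate 1 is the library with the high fibroblast and endothelial marker sums. Its sum over 6 sebocyte markers also stood apart, at 14239 CPM against 546 to 1289 CPM in the other 7 libraries, with 8197 CPM of Scd1 and 5818 CPM of Fasn, both lipid synthesis enzymes. It also held 12.8 CPM of the IL-33 receptor Il1rl1 against 0.240 in replicate 2. How far the other cell types set these levels was not tested.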

How the data were processed

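Counts per gene came from rRNA-depleted total RNA of epidermal sheets, read as 150 bp pairs. The deposited values are raw counts of reads per Ensembl gene, not normalized; per the submitters' processing notes, Trimmomatic 0.36, STAR 2.5.2b, featureCounts and Subread 1.5.2 were used and GRCm38 and GRCh38 were named. Strand use and the handling of multi-mapping reads are not given in the sources used here, so overlapping and paralogous genes can share or lose reads. Of 21 files, 13 list every gene at 0 and were not used; the other 8 hold 11318181 to 17746284 counts. Of 49315 identifiers 49056 were in GENCODE M21 (GRCm38), which gave symbols; 44858 had the same start and end.

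Counts were tested with edgeR 4.0.16 in R 4.3.3 (filterByExpr, TMM factors, robust glmQLFit with a prior count of 2, glmQLFTest), adjusted over all 17755 genes tested, threshold 0.05. SE values come from the unshrunken coefficient and the F statistic. CPM is counts per 1000000 without TMM factors. Ratios used 0.5 added counts and an exact permutation test. The steps were tested on simulated data. The 10 members and all lists were chosen with earlier results of these data known. Named were all members, all receptor genes, and up to 5 called genes per direction in each other list. Background was the count density of 1418 odorant and vomeronasal receptor genes. The 14 alternatives are in the closing section. Same-numbered replicates did not deviate together (r 0.03, -0.16 and -0.06), and their numbers are not taken as pairs.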

Additional observations from a re-analysis of the deposited data

Results flagged for a closer look

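Il7r, the receptor chain that TSLP shares with interleukin 7, had 8.17 and 13.7 CPM at 3 weeks under the Tfap2b knockout label. These libraries entered no comparison, and their values lie above the 3.45 to 3.58 CPM of the 6-month controls. The difference was not tested, and age, genotype and replicate 1's other cell types cannot be told apart.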

How the results depend on the processing

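The 10 genes, their receptors and the named pathway genes were recomputed under 14 alternatives: 8 other settings and 6 fits with 1 library left out. Of 529 values of 38 named genes, 432 kept their direction and side of the threshold, 76 lost it, 10 gained it and 11 reversed. The cause was not tested. Genes changed numbered 2637, against 4809 with no filter on low counts, 1729 with the replicate block, 1548 with all 8 libraries in 1 fit, and 668 to 7544 with 1 library left out, the lowest without replicate 1 of the double knockout and the highest without control replicate 3. The replicate block left 2 cytokine genes called; no pairing is claimed. Among the 10 genes, the 2 higher calls became 1 with all 8 libraries and 0 to 2 with 1 left out, and the 0 lower calls became 1 with no filter. Over all genes, 1941 of 42554 tested were higher and 2868 lower with no filter, and 658 of 21591 higher and 890 lower with all 8 libraries. With all 8 libraries, lower calls were 1 for receptors, 2 for signalling genes, 1 for processing genes and 2 for induced genes, and 1 processing gene was higher. Higher calls were 2 for receptors and 2 for signalling genes by total counts, 2, 2 and 2 (receptors, signalling and induced genes) with no filter, and 2, 3 and 2 by DESeq2. With background subtracted 2 receptors and 1 processing gene were higher, and with the replicate block 0 signalling and 1 processing gene. Of all genes tested, 1376 of 17755 were higher by total counts and 1653 of 17755 by DESeq2. With background subtracted 1038 of 17272 were higher, and with the replicate block 720 of 17755. Leaving out 1 library gave 1 to 2 receptors higher and 0 to 3 lower, 0 to 6 signalling genes higher and 2 to 3 lower, 1 to 4 processing genes higher and 1 to 3 lower, and 0 to 1 induced genes higher and 1 to 6 lower. Calls over all genes moved as well in these fits. They were fewest without replicate 1 of the double knockout, 313 of 21237 higher and 355 lower. They were most without control replicate 3, 2733 of 21030 higher and 4811 lower. Reversals were as follows, in log2 fold change. With 1 library left out, Il1b ranged from -0.84 to 0.15 (reversed without control replicate 2), Il1rl1 from -1.11 to 0.066 (without control replicate 2), Crlf2 from -0.22 to 0.34 (main value 0.03, reversed without control replicate 1, -0.22, and replicate 2 of the double knockout, -0.11) and Il18rap from -0.87 to 0.48 (reversed without control replicate 2, 0.48, and replicates 2, 0.04, and 3, 0.15, of the double knockout). Il1rl1 was 0.19 and Il18rap 0.74 with background subtracted, Il18rap 0.10 with the replicate block, and Crlf2 -0.0083 with at least 10 counts in every library. Il1b, Il1rl1 and Il18rap have too few counts for that filter and have no value there.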
